A study of Homo sapiens with 6 samples.

Results

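The genes of cystine uptake and glutathione synthesis described here are SLC7A11, GCLC, GCLM, GSS, GSR, GLRX, GSTP1, CBS and CTH, which are 9 of the 17687 genes in the table. They were picked by name and role, and they were selected on the differences between the 3 groups, which were already known when the list was drawn up. Their differences between groups are therefore given as a description, and nothing is supported with them. Where edgeR calls of these genes are counted below, beside the share of all genes called, they are no test of the genes. All 9 passed the filter on low counts, which kept 14005 genes.

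RNA was sequenced from KHM-5M, a line of anaplastic thyroid cancer cells, in 3 groups of 2 libraries. Control cells received PBS, SS cells received sodium selenite, and SS+NAC cells received sodium selenite together with N-acetylcysteine (NAC), a thiol compound that served as the inhibitor of reactive oxygen species. All cells were grown in RPMI-1640 with fetal bovine serum, and polyadenylated RNA was read from random primers. No group with NAC alone was analysed here, so an effect of NAC by itself and an effect of NAC in the presence of selenite cannot be told apart. The time of exposure of the sequenced cells is not given in the sources used here, and the selenite dose was not used. The expected counts, which are estimated numbers of reads per gene, summed to 17645545 and 22016655 in control, 23493415 and 23810056 in SS, and 23682740 and 22617180 in SS+NAC.

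Glutathione is the main small thiol of the cell, and cysteine is usually the scarcest of the amino acids from which it is made. Cells take up cystine, the oxidized pair of cysteines, in exchange for glutamate and reduce it to cysteine inside, or make cysteine from methionine by transsulfuration. Glutamate and cysteine are joined by glutamate-cysteine ligase, and glycine is then added by glutathione synthetase. Selenite reacts with glutathione and is reduced at its expense, and NAC can be deacetylated to cysteine.

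The labelled cell type was checked against marker genes by TPM, a level per transcript length that can be compared between genes. PAX8, a transcription factor of thyroid follicular cells, lay between 104 and 134 TPM in the 6 libraries. The other thyroid markers in the table were low: TG, NKX2-1 and SLC5A5 did not exceed 0.690 TPM in any library, and FOXE1 did not exceed 1.59 TPM. Of the epithelial markers, keratin 8 (977 to 1398 TPM) and keratin 18 (731 to 1099 TPM) were abundant. EPCAM, KRT19 and CDH1 did not exceed 6.07, 2.19 and 0.290 TPM. Of the mesenchymal markers, vimentin (5744 to 6621 TPM) and COL1A1 (167 to 273 TPM) were abundant, whereas PDGFRB and COL1A2 did not exceed 5.74 and 0.0400 TPM. The endothelial markers PECAM1 and CDH5 together reached at most 0.480 TPM, and the leukocyte marker PTPRC at most 0.770 TPM. CD3E was listed at 0 in 5 of the 6 libraries. The 4 leukocyte markers summed to 84.7 and 88.3 TPM in control, 84.5 and 72.0 in SS, and 103 and 112 in SS+NAC. Most of this was CD68, a lysosomal protein gene also read in other cells, and the part of these markers in the results was not tested.

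In control cells the levels of the 9 genes differed widely. GSTP1 was the most abundant at 850.1 ± 23.1 TPM (SD, n = 2), followed by GSS at 109.7 ± 2.91 and GLRX at 80.8 ± 0.962 TPM. CBS (52.1 ± 5.73 TPM), GSR (37.2 and 35.5 TPM in the libraries), GCLC (22.5 ± 1.65 TPM) and GCLM (19.7 ± 0.615 TPM) were intermediate. SLC7A11 at 6.93 ± 0.354 TPM and CTH at 2.75 ± 0.0636 TPM were the lowest. No neighbours in this order overlapped between their control libraries. In SS+NAC, SLC7A11, GCLC and GCLM had moved together, at 31.8 ± 6.73, 40.3 ± 10.3 and 38.8 ± 5.76 TPM, and their libraries overlapped. CBS and GSR also overlapped there, at 60.8 ± 2.65 and 63.0 ± 4.97 TPM.

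**Figure D1:**
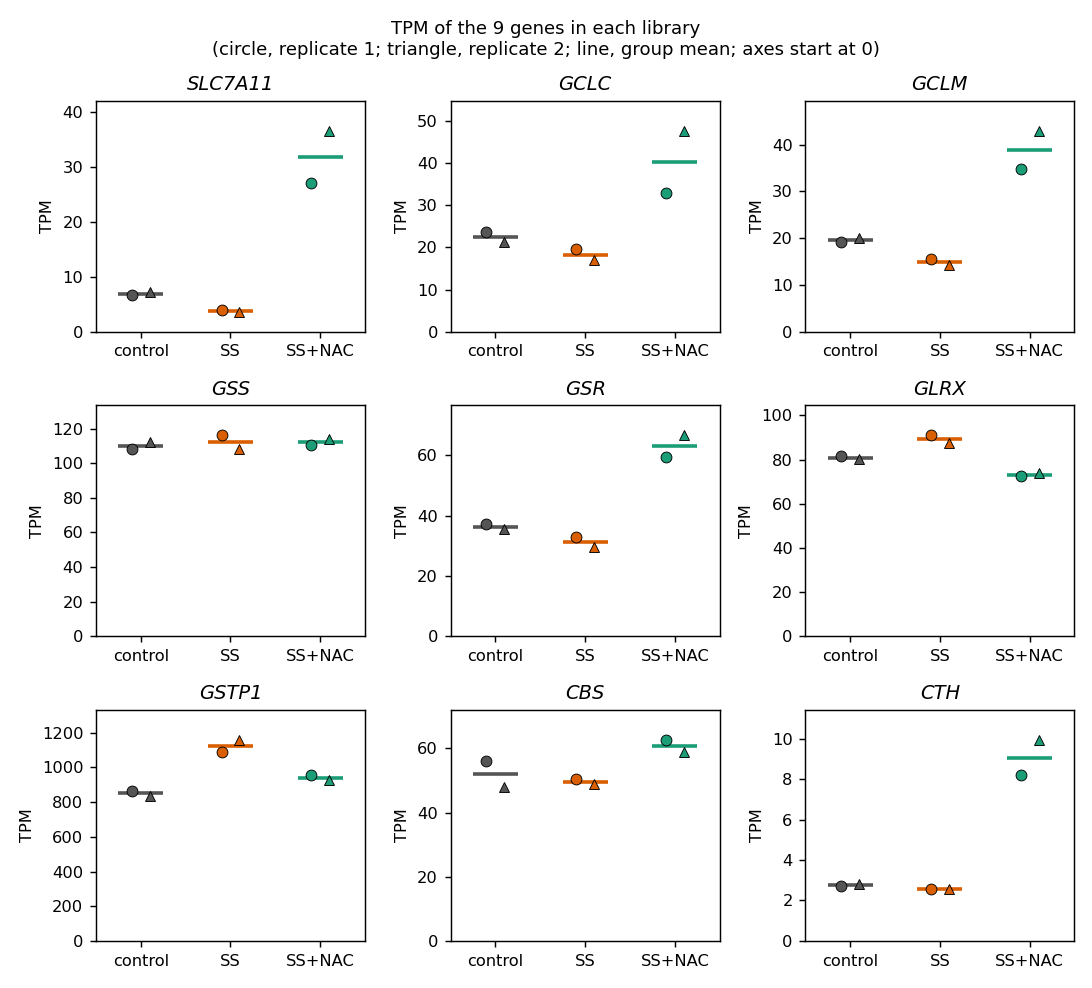
TPM (vertical axes, from 0) of each of the 9 genes in the 6 libraries, with a circle for replicate 1, a triangle for replicate 2 and a line at the group mean. SLC7A11 lies at 27.1 and 36.6 TPM in SS+NAC, above its 6.68 and 7.18 TPM in control, and GSTP1 is highest in SS, at 1089 and 1158 TPM.

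Differences between groups were measured on counts scaled by TMM, a factor that removes differences in depth and composition. They are given as edgeR log2 fold changes with a standard error (SE). The SE was derived as the size of the fold change divided by the square root of the F statistic of the edgeR test. The 3 comparisons share libraries in pairs, so their values are not independent of each other. In SS libraries the fold changes depended on transcript length. At 939 bases, the effective length of GSTP1, the trend over all tested genes in SS against control was 0.45 on the log2 scale, and at 9768 bases, that of SLC7A11, it was -0.54. In SS+NAC against control the trend at these lengths was -0.01 and -0.02. Values with an offset that removes this trend in each library stand beside those without it. The TPM scale moved the median log2 ratio of all tested genes to -0.26 in SS against control and to 0.36 in SS+NAC against SS, compared with 0.05 in SS+NAC against control, and TPM ratios are to be read relative to these medians.

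SLC7A11 encodes xCT, the light chain of the cystine and glutamate exchanger. The gene (NCBI gene 23657) lies on the minus strand of chromosome 4 of GRCh38 from 138164097 to 138242349 in GENCODE release 29. It had 32.8 and 36.0 CPM (counts scaled to the size of the library) in control, 22.8 and 23.2 CPM in SS, and 133 and 168 CPM in SS+NAC. Both SS+NAC libraries lay above all others, both SS libraries lay below both control libraries, and no groups overlapped. These values rest on at least 509 expected counts in each library. SS+NAC exceeded control by a log2 fold change of 2.13 (SE 0.11), or 4.37-fold, and the length offset left it at 2.15. Among the 10698 tested genes whose mean reached 5 CPM, this difference ranked 7 from the top, and among all 14005 tested genes it ranked 21. SS+NAC exceeded SS by 2.71 (SE 0.11) on the log2 scale, which ranked 1 among these genes and 13 among all tested genes, and by 2.19 (SE 0.11) with the offset.

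Between SS and control, the log2 fold change of SLC7A11 was -0.58 (SE 0.12). The offset brought it to -0.04 (SE 0.11), so that SLC7A11 lay close to the trend of genes of its length. The TPM ratio of -0.86 was -0.59 relative to the median of all genes. The effective length of this gene was the greatest of the 9, and the part of length in its lower value in SS was not tested further.

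GCLC and GCLM encode the catalytic and the modifier subunit of glutamate-cysteine ligase, which carries out the rate-limiting step of glutathione synthesis. GCLC (NCBI gene 2729, chromosome 6 from 53497341 to 53616970, minus strand) had 42.7 and 38.7 CPM in control, 40.4 and 38.5 CPM in SS, and 58.1 and 78.3 CPM in SS+NAC. Both SS+NAC libraries were above the other 4, and the SS and control libraries overlapped. The replicates of SS+NAC differed by 1.44-fold in TPM, the widest gap of the 9 genes within a group. SS+NAC exceeded control by a log2 fold change of 0.75 (SE 0.12), which was 0.94 without SS+NAC replicate 1 and 0.52 without SS+NAC replicate 2. SS+NAC exceeded SS by 0.79 (SE 0.12), or 0.68 with the length offset.

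GCLM (NCBI gene 2730, chromosome 1 from 93885205 to 93909456, minus strand) had 49.5 and 52.8 CPM in control, 46.5 and 47.0 CPM in SS, and 89.6 and 103 CPM in SS+NAC. The SS+NAC libraries were again above all others. The log2 fold change of SS+NAC was 0.91 (SE 0.09) against control and 1.04 (SE 0.09) against SS, and the latter was 0.76 with the length offset. In SS against control the values were -0.04 (SE 0.13) for GCLC and -0.13 (SE 0.09) for GCLM. With the offset they were 0.06 and 0.17, so neither direction was kept when length was taken into account.

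The promoters of the 9 genes were searched for TGACNNNGC, the core of the antioxidant response element, and for TGATGNAA, the core of the C/EBP-ATF response element, because the transcription factors that bind these elements are known regulators of several of the genes. RefSeq promoters of 300 bases (250 before and 50 after the transcription start, GRCh38.p14) were matched by symbol for 6 of the 9 genes, with 8 windows in all. SLC7A11, GSS and GSR were not among them. On either strand, TGACNNNGC was found in a window of GCLM, of GSTP1 and of CBS, which is 3 genes, and TGATGNAA in 0. Of all 35116 promoter windows, 13.3% held TGACNNNGC and 3.62% held TGATGNAA. The windows of GCLC, GLRX and CTH held neither. The promoter of GCLM, which was higher in SS+NAC, is shown with that of GSTP1, which was 1.06-fold higher there. The capitals mark the match to TGACNNNGC, which lies on the strand opposite to the gene in GCLM and on the strand of the gene in GSTP1, with its first base at -34 and -66 from the start. The window of GCLM is chr1:93909381-93909680 on the minus strand, that of GSTP1 is chr11:67583562-67583861 on the plus strand, and both are written 5′ to 3′ along the gene.
GCLM: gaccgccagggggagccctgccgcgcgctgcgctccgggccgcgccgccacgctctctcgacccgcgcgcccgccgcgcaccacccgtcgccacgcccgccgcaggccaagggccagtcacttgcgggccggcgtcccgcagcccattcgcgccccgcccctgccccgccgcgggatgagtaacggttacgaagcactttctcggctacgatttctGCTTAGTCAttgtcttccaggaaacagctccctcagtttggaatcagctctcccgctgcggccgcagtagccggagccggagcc
GSTP1: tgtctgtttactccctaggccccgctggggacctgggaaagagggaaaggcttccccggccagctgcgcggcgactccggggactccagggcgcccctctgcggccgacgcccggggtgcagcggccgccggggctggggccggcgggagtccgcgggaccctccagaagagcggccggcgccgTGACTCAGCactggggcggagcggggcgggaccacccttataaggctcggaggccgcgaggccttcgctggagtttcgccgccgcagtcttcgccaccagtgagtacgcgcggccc
Such a match describes the letters in the window and does not show that a factor binds there.

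GSS encodes glutathione synthetase, the enzyme of the second step. The gene (NCBI gene 2937, chromosome 20 from 34928433 to 34956027, minus strand) had 104 and 110.3 CPM in control, 131 and 134 CPM in SS, and 107 and 103 CPM in SS+NAC. On this scale SS lay above the other groups, which overlapped. The log2 fold change was 0.31 (SE 0.07) in SS against control and -0.33 (SE 0.07) in SS+NAC against SS. The length offset gave 0.11 and -0.15. On the TPM scale all 3 groups overlapped, with means of 109.7, 112 and 112 TPM. Relative to the medians of all genes, the TPM log2 ratios were 0.29 in SS against control and -0.35 in SS+NAC against SS. GSS thus differed from both ligase subunits, with a log2 fold change of -0.03 (SE 0.07) in SS+NAC against control.

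GSR encodes glutathione reductase, which restores glutathione from its oxidized form with NADPH. The gene (NCBI gene 2936, chromosome 8 from 30678061 to 30727999, minus strand) had 59.9 and 58.4 CPM in control, 62.0 and 61.2 CPM in SS, and 96.5 and 101 CPM in SS+NAC. Both SS+NAC libraries stood above the other 4, and the replicates lay close together. SS+NAC exceeded control by a log2 fold change of 0.74 (SE 0.07) and SS by 0.68 (SE 0.07), or by 0.73 and 0.61 with the length offset. SS differed from control by 0.06 (SE 0.07).

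GLRX encodes glutaredoxin, which removes glutathione from mixed disulfides with proteins. The gene (NCBI gene 2745, chromosome 5 from 95751319 to 95823005, minus strand) had 44.3 and 44.9 CPM in control, 57.8 and 60.8 CPM in SS, and 39.7 and 37.9 CPM in SS+NAC. SS was the highest and SS+NAC the lowest group, with no overlap. The log2 fold change was 0.41 (SE 0.07) in SS against control, -0.20 (SE 0.08) in SS+NAC against control and -0.61 (SE 0.07) in SS+NAC against SS. Its effective length was 1084 bases, and the trend at this length was 0.41 in SS against control. With the offset, the SS difference was 0.00 (SE 0.07) and the difference between SS+NAC and SS was -0.20.

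GSTP1 encodes the pi class glutathione transferase, which joins glutathione to electrophiles. The gene (NCBI gene 2950, chromosome 11 from 67583595 to 67586656, plus strand) had 409 and 402 CPM in control, 601 and 702 CPM in SS, and 453 and 410.0 CPM in SS+NAC. The SS libraries were the highest, and no groups overlapped. The log2 fold change was 0.69 (SE 0.09) in SS against control, or 1.61-fold, and -0.60 (SE 0.09) in SS+NAC against SS. Under the length offset they were 0.23 (SE 0.07) and -0.14 (SE 0.07). GSTP1 was higher in SS by TPM as well, with a ratio of 0.40 on the log2 scale, or 0.67 relative to the median of all genes. Between SS+NAC and control the log2 fold change was 0.09 (SE 0.09).

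CBS and CTH encode cystathionine beta-synthase and cystathionine gamma-lyase, which make cysteine from homocysteine and serine in successive steps. CTH (NCBI gene 1491, chromosome 1 from 70411218 to 70439851, plus strand) had 3.45 and 3.57 CPM in control, 3.62 and 3.79 CPM in SS, and 10.8 and 11.7 CPM in SS+NAC. Both SS+NAC libraries were about 3 times as high as the others. CTH had between 62 and 83 expected counts in the control and SS libraries, so its values there are less precise than those of the other genes. The log2 fold change of SS+NAC was 1.68 (SE 0.14) against control, or 3.20-fold, and 1.60 (SE 0.14) against SS. Both were 1.66 under the length offset. SS differed from control by 0.08 (SE 0.16).

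CBS (NCBI gene 875, chromosome 21 from 43053191 to 43076943, minus strand) had 72.7 and 63.4 CPM in control, 76.8 and 81.0 CPM in SS, and 83.3 and 73.0 CPM in SS+NAC. The SS and SS+NAC libraries overlapped, and the control libraries lay below both. The log2 fold change was 0.22 (SE 0.09) in SS against control, 0.20 (SE 0.09) in SS+NAC against control and -0.01 (SE 0.09) in SS+NAC against SS. On the TPM scale CBS overlapped between SS and control. Its log2 ratio of SS to control was -0.07, or 0.19 relative to the median of all genes. These values are uncertain, because CBSL is a near-identical copy on the same chromosome with which reads can be shared. CBSL had 12.6 and 21.8 CPM in control. The sum of both genes was 85.3 and 85.2 CPM in control, 94.8 and 96.1 CPM in SS, and 103 and 95.4 CPM in SS+NAC.

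**Figure D2:**
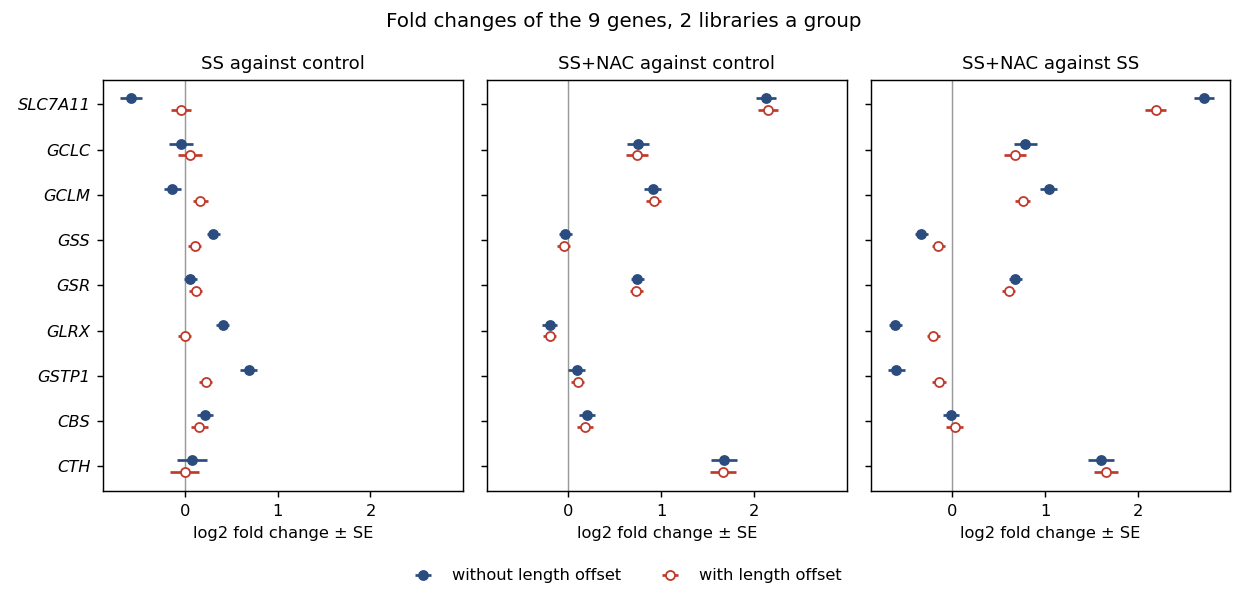
Log2 fold change (horizontal axes) with SE for the 9 genes in the 3 comparisons, from edgeR on 2 libraries a group, without (filled) and with (open) the length offset. SLC7A11 moves from -0.58 to -0.04 in SS against control and stays at 2.13 and 2.15 in SS+NAC against control.

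At an adjusted p of at most 0.05 in edgeR, 4 of the 9 genes were called in SS against control, GSS, GLRX and GSTP1 higher and SLC7A11 lower. Of all tested genes, 40.0% were called in that comparison, 18.6% higher and 21.4% lower. With the length offset, edgeR called 0 of the 9 and 9.35% of all genes, and 1 of the 9 and 25.3% of all genes had an unadjusted p under 0.05. DESeq2 without an offset called 4 of the 9, and 37.9% of the 12171 genes to which it gave an adjusted p. In SS+NAC against control, SLC7A11, GCLC, GCLM, GSR and CTH were called, all 5 higher, against a background of 2.01% of genes called, 1.36% higher and 0.657% lower. The same 5 genes were called there with the offset, where the background was also 2.01%. In SS+NAC against SS, 8 genes were called, the same 5 higher and GSS, GLRX and GSTP1 lower, with 42.7% of all genes called, 23.1% higher and 19.6% lower. With the offset the 5 higher genes were called, and 14.4% of all genes. Because the genes were selected on these comparisons, nothing is read from their counts.

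Some of these calls were lost when a library was left out, which also leaves fewer libraries to estimate the spread. A lost call alone therefore does not show that it rested on that library. With all libraries the log2 fold changes were 0.75 for GCLC in SS+NAC against control and 0.31 for GSS in SS against control. GCLC was not called in SS+NAC against control without control replicate 2, where its log2 fold change was 0.68. GSS was not called in SS against control without control replicate 1 or without SS replicate 2, with values of 0.26 and 0.29. The number of all genes called in SS+NAC against control was 282, and it was 98 without control replicate 1, 99 without control replicate 2 and 1086 without SS+NAC replicate 1. In SS against control it was 5609, and 3118, 3628 and 3164 without control replicate 1, control replicate 2 and SS replicate 2. In SS+NAC against SS it was 5985, and 3250 without SS replicate 2.

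**Figure D3:**
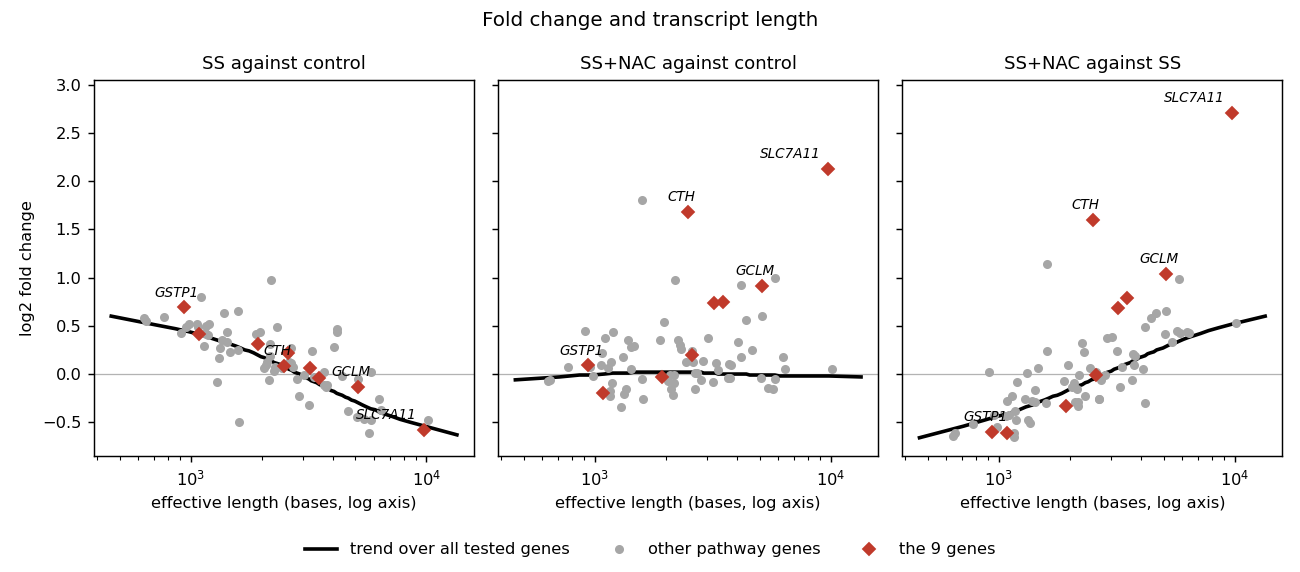
Log2 fold change (vertical axis) against effective length in bases (log axis) for the 9 genes (diamonds) and the other tested pathway genes (grey), with the trend over all tested genes as a line. In SS against control SLC7A11 (-0.58) lies near the falling line and GSTP1 (0.69) above it, and in SS+NAC against control the line is flat while SLC7A11 (2.13) and CTH (1.68) lie above it.

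Beyond the 9 genes, 81 further genes of cysteine and glutathione metabolism were listed in 8 groups by their known function. Of these, 75 were in the table and 68 were tested. These lists were also drawn up with earlier results of these data known. Their counts and p-values, here and in the other comparisons, are therefore a description and no independent test. In SS+NAC against control, 7 of the 68 (10.3%) were called by edgeR, all 7 higher, against 2.01% of all tested genes, and the median log2 fold change was 0.07, compared with 0.00 for all tested genes. CHAC1, which breaks down glutathione in the cytosol, was the 1 called of 11 genes of the gamma-glutamyl cycle and had the largest rise, from a mean of 8.23 to 28.6 CPM, with a log2 fold change of 1.80 (SE 0.10, edgeR adjusted p = 3.02e-06). Its TPM values were 9.68 and 9.52 in control, 13.6 and 13.1 in SS, and 36.1 and 38.5 in SS+NAC, so that both libraries of each treatment stood above control. Of the cystine and cysteine transporters, 2 of 5 rose. SLC3A2, the heavy chain that joins xCT in the exchanger, rose from 241 to 350.1 CPM (log2 fold change 0.54, SE 0.09, edgeR adjusted p = 0.0139), and both SS+NAC libraries lay above both control libraries, but it was not called without control replicate 1 (0.45). SLC1A4, a carrier of neutral amino acids, rose by a log2 fold change of 0.56 (SE 0.08, edgeR adjusted p = 0.00585), again with no overlap, and was not called without control replicate 1 (0.49).

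Of the 8 transcriptional regulators, MAFG, a small MAF protein that pairs with NRF2, was the 1 called by edgeR between SS+NAC and control. Its log2 fold change was 0.60 (SE 0.07, edgeR adjusted p = 0.00204), with both libraries above control. DESeq2 called 2 of the 8 regulators, and 8 of the 68 listed genes. ATF4, the most abundant of the regulators in control, had 719 CPM in SS+NAC and 593 CPM in control, and its log2 fold change of 0.28 (SE 0.08) did not pass (edgeR adjusted p = 0.102). MAT2A, which makes S-adenosylmethionine and was the 1 called of 9 tested methionine cycle genes, rose by 0.37 (SE 0.07, edgeR adjusted p = 0.0309), with both libraries above control. ABCC3, an exporter of organic anions and glutathione conjugates and the 1 called of 7 in its list, rose from 14.8 to 27.9 CPM, a log2 fold change of 0.92 (SE 0.18, edgeR adjusted p = 0.0298), with no overlap between the groups. MGST1, a membrane-bound transferase and the 1 called of 13 transferases, rose by 0.45 (SE 0.09, edgeR adjusted p = 0.0383), with both libraries above control, but its call was kept under 4 of 13 alternatives only. MAT2A was not called without control replicate 1 (0.35) or 2 (0.39), and ABCC3 was not called without control replicate 2 (0.78). Without control replicate 1 or 2, the called genes of the lists numbered 3 and 4, with 0.684% and 0.690% of all genes tested in those fits called. No gene of cysteine breakdown and sulfide oxidation was called by edgeR or DESeq2 (0 of 8, 3 at an unadjusted p under 0.05), nor any of the glutaredoxins and glutathione-dependent enzymes (0 of 7, 1 at an unadjusted p under 0.05). Of all tested genes, 16.1% had an unadjusted p under 0.05 there, and DESeq2 called 2.39% of the 13197 genes to which it gave an adjusted p. The abundant genes AHCY, MPST, CNDP2, MGST3, GLO1 and SLC25A39 had log2 fold changes between -0.21 and -0.01 there and did not pass.

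**Figure D4:**
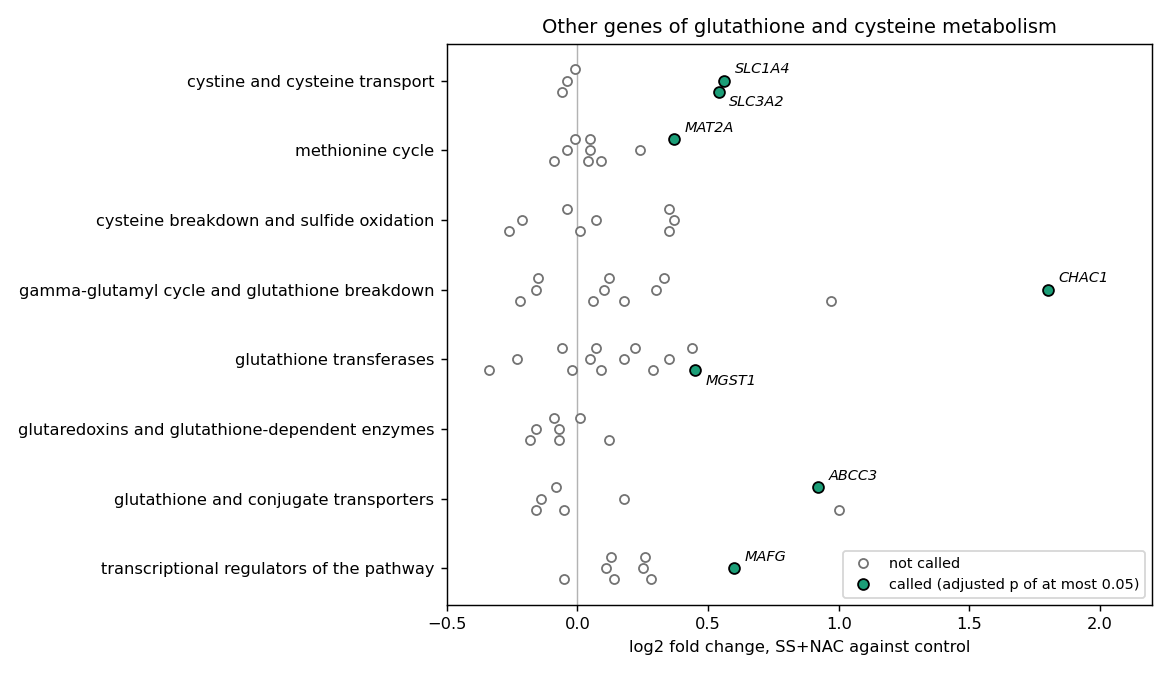
Log2 fold change of SS+NAC against control (horizontal axis) for the tested genes of the 8 lists, 1 point a gene, with genes at an edgeR adjusted p of at most 0.05 filled and named. CHAC1 lies furthest to the right at 1.80, and all 7 filled points are above 0.

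In SS against control, 33 of the 68 listed genes (48.5%) were called, 24 higher and 9 lower, against 40.0% of all tested genes. The median log2 fold change was 0.21, compared with 0.00 over all genes, and 0.04 with the length offset, compared with 0.01. By list, 8 of 13 transferases and 6 of 7 glutaredoxins and glutathione-dependent enzymes rose and none of these 2 lists fell, whereas 4 of 7 transporters of glutathione and its conjugates fell and none rose. With the offset 1 of 13 transferases, 0 of 7 glutaredoxins and glutathione-dependent enzymes (1 at an unadjusted p under 0.05, against 25.3% of all genes; DESeq2 without an offset called 6, against 37.9%) and 1 of 7 transporters were called by edgeR, and the lists' medians were 0.08, 0.03 and -0.04. Of the other lists, 1 of 5 cystine and cysteine transporters, 4 of 8 genes of cysteine breakdown and sulfide oxidation and 2 of 11 of the gamma-glutamyl cycle were called, all higher. In the methionine cycle 1 gene rose and 3 fell of 9, and among the 8 regulators 2 rose and 2 fell. On the TPM scale the ratio had the opposite sign for 2 of the 33 called genes, 1 of them among the glutaredoxins and glutathione-dependent enzymes. The median of all tested genes on that scale was itself -0.26, so a sign relative to 0 does not show a change of direction. GSTZ1, the zeta class transferase, had the largest rise of its list at 0.63 (SE 0.10, edgeR adjusted p = 0.00105), and GLRX2, a mitochondrial glutaredoxin, that of its list at 0.58 (SE 0.10, edgeR adjusted p = 0.00130). TST, a sulfurtransferase of sulfide oxidation, rose from 6.99 to 12.2 CPM (log2 fold change 0.80, SE 0.13, edgeR adjusted p = 0.00126). In each of these genes both SS libraries were above both control libraries. For genes already called, a lack of overlap adds no support, in this comparison and the others. The offset gave log2 fold changes of 0.30 for GSTZ1, 0.05 for GLRX2 and 0.40 for TST, and none of the 3 was called. MTR, methionine synthase, fell by 0.48 on the log2 scale (SE 0.08, edgeR adjusted p = 0.00153) but had a log2 fold change of 0.07 with the offset. SLC3A2 rose by 0.44 (SE 0.09, edgeR adjusted p = 0.00354) with no overlap between the groups, a value that was 0.25 with the offset, where it was not called, and 0.36 without control replicate 1, where it was not called either. ATF4, the most abundant regulator in control, rose by 0.44 (SE 0.08, edgeR adjusted p = 0.00135) with no overlap, and MGST3 by 0.55 (SE 0.08, edgeR adjusted p = 0.000540), likewise with no overlap. Under the offset these were 0.12 and 0.03, and neither was called. AHCY, which splits S-adenosylhomocysteine, rose by 0.31 (SE 0.08, edgeR adjusted p = 0.00832), and BACH1, a repressor that competes with NRF2, fell by 0.48 (SE 0.12, edgeR adjusted p = 0.0119), both without overlap in CPM. The TPM values of AHCY overlapped between SS and control, with a log2 ratio of 0.03, above the all-gene median of -0.26. Neither AHCY nor BACH1 was called with the offset (0.17 and -0.12), without control replicate 1 (0.31 and -0.40) or without SS replicate 2 (0.27 and -0.33), and AHCY was not called without control replicate 2 (0.35). MPST, another sulfurtransferase, rose by 0.27 (SE 0.09, edgeR adjusted p = 0.0413) with no overlap in CPM. Its TPM values overlapped, with a log2 ratio of -0.01, above the all-gene median of -0.26. Its call was kept under 6 of 13 alternatives only, and its value was -0.07 with the offset. Without control replicate 1, control replicate 2 or SS replicate 2 it was not called (0.22, 0.36 and 0.16). CNDP2, GLO1 and SLC25A39 did not pass, with log2 fold changes of 0.11, 0.06 and 0.25, which the offset brought to 0.07, -0.11 and -0.04.

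With the length offset, 5 of the 68 genes (7.35%) were called in SS against control, and 9.35% of all tested genes. They were chosen here after their values were seen. CHAC1 was higher by 0.38 (SE 0.10), compared with 0.65 (SE 0.10) without the offset. MAFF, another small MAF protein, was higher by 0.38 (SE 0.07), compared with 0.49 (SE 0.07). GSTM3, a mu class transferase, was higher by 0.67 (SE 0.13), compared with 0.47, and without the offset it was not called by DESeq2, without control replicate 2 (0.37) or without SS replicate 1 (0.41). Its TPM values overlapped between SS and control, on a scale where the median log2 ratio of all tested genes was -0.26. OPLAH, the oxoprolinase of the gamma-glutamyl cycle, was higher by 0.46 (SE 0.12), compared with 0.28, where it was not called, and its TPM values overlapped as well. ABCC4, an exporter of the same family as ABCC3, was lower by a log2 fold change of -0.26 (SE 0.07), compared with -0.61 (SE 0.08) without the offset. For CHAC1, MAFF and ABCC4 the groups did not overlap.

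In SS+NAC against SS, 37 of the 68 genes (54.4%) were called, 16 higher and 21 lower, against 42.7% of all tested genes, with a median of -0.06, compared with 0.03 over all genes. With the length offset 11 (16.2%) were called, 8 higher and 3 lower, against 14.4% of all tested genes, and without SS replicate 2 the count was 20, against 22.7% of all genes tested in that fit. By TPM, 9 of the 37 had a ratio of the opposite sign, 1 of them among the glutaredoxins and glutathione-dependent enzymes. On that scale the median of all tested genes was itself 0.36, so a sign relative to 0 does not show a change of direction. CHAC1 again had the largest rise of the genes named, at 1.14 (SE 0.09, edgeR adjusted p = 8.62e-05), and it was 1.40 with the offset. MAFG rose by 0.65 (SE 0.07, edgeR adjusted p = 0.000258) and SLC1A4 by 0.58 (SE 0.08, edgeR adjusted p = 0.000499), and both were 0.36 and called with the offset. In these 3 genes both SS+NAC libraries lay above both SS libraries. All 6 called genes among the 7 glutaredoxins and glutathione-dependent enzymes fell, led by GLRX2 with a log2 fold change of -0.64 (SE 0.10, edgeR adjusted p = 0.000682), which was -0.08 with the offset. Under the offset 1 of these 7 was called, and their median went from -0.48 to -0.11. MGST3, the most abundant transferase of its list by TPM in control, had a log2 fold change of -0.61 (SE 0.08, edgeR adjusted p = 0.000371) and of -0.05 with the offset. For both genes the SS+NAC libraries lay below the SS libraries. AHCY of the methionine cycle, the aminopeptidase gene LAP3, MAFF and the mitochondrial carrier gene SLC25A39 were the largest falls of their lists, at -0.33, -0.29, -0.23 and -0.30, with edgeR adjusted p between 0.00631 and 0.0237. None of these 4 was called with the offset, and their TPM ratios were between 0.02 and 0.10, below the all-gene median of 0.36. Without SS replicate 2 none of the 4 was called either (-0.28, -0.24, -0.27 and -0.21). MAFF and SLC25A39 also lost their calls without SS+NAC replicate 2 (-0.20 and -0.21), and MAFF without control replicate 1 (-0.23) or SS replicate 1 (-0.19). MTR rose by 0.53 (SE 0.08, edgeR adjusted p = 0.000839) and MPST fell by 0.48 (SE 0.09, edgeR adjusted p = 0.00256), both without overlap, and neither was called with the offset (0.00 and -0.15). ABCC3 rose by 0.49 (SE 0.17, edgeR adjusted p = 0.0442) without overlap, and was called neither with the offset (0.29) nor without SS replicate 2 (0.33) or SS+NAC replicate 2 (0.19), and its call was kept under 8 of 13 alternatives. CNDP2, a dipeptidase gene, fell by 0.26 (SE 0.07, edgeR adjusted p = 0.0167), with no overlap. It was also called with the offset (-0.24) but not without SS replicate 2 (-0.21) or SS+NAC replicate 2 (-0.22). Its TPM ratio was 0.05, also below the all-gene median of 0.36. GLO1 and ATF4 did not pass, at -0.13 and -0.17, nor did they with the offset, at 0.02 and 0.14. SLC3A2 had 350.1 CPM in SS+NAC and 328 CPM in SS, and these groups overlapped. Its log2 fold change was 0.09, and 0.26 with the offset (edgeR adjusted p = 0.0536).

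The genes nearest to SLC7A11 in pattern were sought by the root mean square difference of log2 CPM, each gene taken relative to its own mean over the 6 libraries, among the 10698 genes whose mean reached 5 CPM. The nearest were INHBE (0.245), CTH (0.464), SESN2 (0.505), ADM2 (0.509) and EREG (0.541). This minimum was taken over all 6 libraries, so that INHBE and CTH reached it through SS+NAC alone, as each lay below 5 CPM in every control and SS library. INHBE, which encodes an inhibin beta subunit, had 2.11 and 2.80 CPM in control, 2.53 and 1.96 CPM in SS, and 10.5 and 12.2 CPM in SS+NAC. SESN2, which encodes the stress protein sestrin 2, had 27.5 and 30.6 CPM in control, 30.9 and 31.2 CPM in SS, and 91.3 and 85.2 CPM in SS+NAC. ADM2, which encodes a peptide hormone, had 25.8 and 25.9 CPM in control, 21.0 and 20.3 CPM in SS, and 63.3 and 58.4 CPM in SS+NAC. EREG, the growth factor epiregulin, differed most between its SS+NAC replicates, at 12.1 and 20.3 CPM. Of the other 8 genes described, GCLM, GCLC and GSR ranked 20, 68 and 100 in this order, and CTH ranked 2. GLRX, GSTP1, GSS and CBS were further from SLC7A11, at ranks 10388, 10135, 8548 and 4940. SLC7A11 and these 8 genes were selected on the differences between the same groups. Their ranks are therefore a description and no test of a shared pattern. No length offset was applied to these values, so the trend with length in SS enters the distances and ranks.

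**Figure D5:**
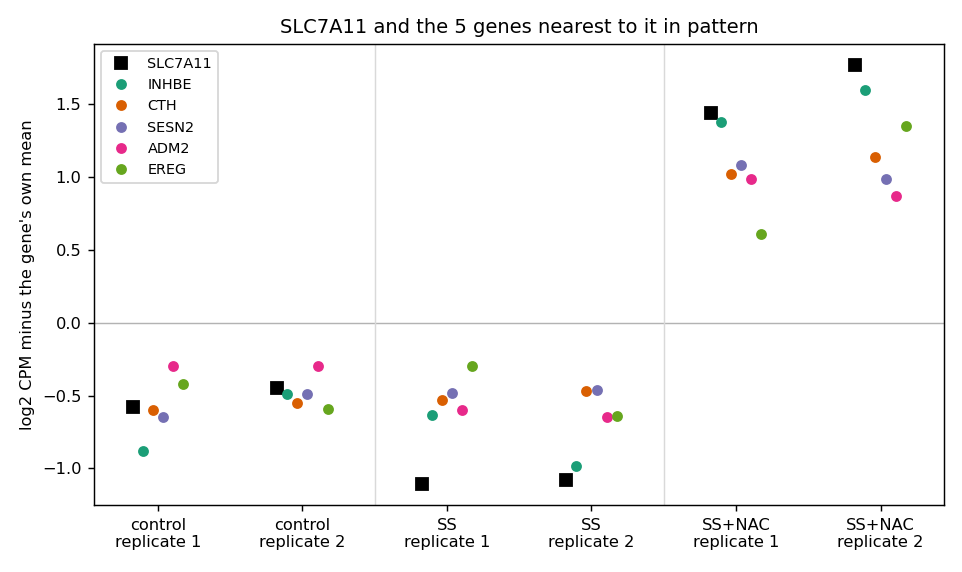
Log2 CPM relative to each gene's own mean (vertical axis) in the 6 libraries for SLC7A11 (squares) and the 5 genes nearest to it (circles). SLC7A11 lies at -1.11 and -1.08 in SS and at 1.44 and 1.77 in SS+NAC, and INHBE lies at 1.38 and 1.60 in SS+NAC.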

How the data were processed

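RNA-seq libraries of KHM-5M cells were grouped by the treatment in their labels. The authors filtered reads with SOAPnuke, and their processing notes name HISAT2 2.0.4, Bowtie2 2.2.5 and RSEM 1.2.12. The expected counts in the deposited table are estimates by the authors with RSEM, and 44.8% of them were not whole. The authors also deposited TPM, which is scaled by length and to the same total in each library. The deposited FPKM values of the authors are scaled by length and depth and served to derive effective lengths, from values of at least 0.1 FPKM. The 9 columns of the authors' own comparisons hold log2 fold changes, p-values and q-values and were not used.

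Counts were rounded, kept by filterByExpr, scaled with TMM and fitted in edgeR 4.0.16 (R 4.3.3) over all 6 libraries. Groups were compared by the quasi-likelihood test with Benjamini-Hochberg adjustment over 14005 genes, and called where the adjusted p did not exceed 0.05. The biological coefficient of variation was 6.74%, and the lone library left when a replicate is removed is assumed to vary like the other groups. The study's methods describe the replicates as biological. Replicates differed by more than sampling noise, with a chi-square per degree of freedom of 3.05 in control, 7.12 in SS and 11.7 in SS+NAC. The length offset was a lowess fit (span 0.3) of each library's log2 CPM deviations, with a prior count of 2, on the log of effective length, and the fit was tested on simulated data. Positions came from GENCODE release 29 (GRCh38) and promoters from RefSeq GRCh38.p14.

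The 9 genes and the lists were chosen with earlier results of these data known. Named from each list were, in each comparison, the called genes with the largest rise and the largest fall among those that averaged 1 CPM or more in either group, and the gene with the highest mean TPM in control. Near patterns were named for the 5 nearest genes of at least 5 CPM. Alternatives were DESeq2 1.42.0 size factors and Wald test, a minimum of 10 counts in every library, no filter, a fit of the compared libraries alone, the length offset, a replicate block and leaving out each library. TPM ratios were added after the data were seen. Tables and figures used Python 3.11.15, pandas 2.3.3, numpy 2.4.6 and matplotlib 3.10.9.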

Additional observations from a re-analysis of the deposited data

How the results depend on the processing

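The values compared were the counts of calls, the 9 genes and the pathway genes named where they were called. Of these, 836 stayed the same, 64 moved further and 9 values of called genes changed sign. Staying the same meant a change of less than 1.5 times for counts, and of less than the replicate spread for the 9 genes, called or not. For the named pathway genes it meant that direction and call were kept, or direction alone by TPM, which has no calls. The 62 calls lost were counted over the named pathway genes only. Of the 9 genes, GSS was called under 10 of 13 alternatives in SS against control and 12 of 13 in SS+NAC against SS. GLRX and GSTP1 in both, SLC7A11 in the first and GCLC in SS+NAC against control were called under 12 of 13. A further 12 sign changes were among the 9 genes described, in comparisons where the gene was not called, 5 of them on the TPM scale and 3 with the length offset. With the length offset, 1310 genes were called in SS against control and 2015 in SS+NAC against SS, with 0 and 5 of the 9 genes and 5 and 11 of the other pathway genes. MTR (0.07) and MPST (-0.07) then changed sign in SS against control. On the TPM scale, an alternative added after the data were seen, those that changed sign relative to 0 among these called genes were MPST in SS against control (-0.01) and, in SS+NAC against SS, GSS (0.00), AHCY (0.02), CNDP2 (0.05), LAP3 (0.05), MAFF (0.10) and SLC25A39 (0.04). The median of all genes was -0.26 in the first comparison and 0.36 in the second. Relative to these medians none of these values changed sign, and GSS was at -0.35. Of all called pathway genes beyond the 9, named or not, 2 of 33 and 9 of 37 had the opposite sign relative to 0 on that scale in these comparisons. Of the values not called, those of GSR (-0.22), CBS (-0.07) and CTH (-0.10) in SS against control, GSS (0.03) in SS+NAC against control and CBS (0.29) in SS+NAC against SS changed sign relative to 0 on that scale. Relative to the median of all genes they kept their sign. When each library was left out, the genes called ranged from 3118 to 6579 in SS against control, from 98 to 1086 in SS+NAC against control and from 3250 to 6339 in SS+NAC against SS. The other pathway genes called ranged from 22 to 37, from 3 to 8 and from 20 to 34, and the 9 genes called from 3 to 5, from 4 to 5 and 8 in every case. With a replicate block, 4857, 211 and 5136 genes were called, and MPST in SS against control, MAT2A and MGST1 in SS+NAC against control and MAFF in SS+NAC against SS lost their calls. Differences between replicates 1 and 2 correlated between groups at 0.113 (control and SS), -0.105 (control and SS+NAC) and -0.175 (SS and SS+NAC). Libraries of equal number thus shared little deviation, which cannot decide whether they were prepared in pairs. DESeq2's Wald test called 178 genes higher and 137 lower in SS+NAC against control, against 190 and 92 in edgeR. With 2 libraries a group, small differences of low genes such as CTH are imprecise. The causes of these changes were not tested.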
